A study of Mus musculus with 6 samples.

Results

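The genes described here are 7 genes of 1 cell-surface receptor family and its secreted ligands: the 3 ADAM genes Adam23, Adam22 and Adam11, and the 4 LGI genes Lgi1, Lgi2, Lgi3 and Lgi4. They were taken by gene symbol from a count table of 55341 genes, and all 7 were found in it and passed the filter on low counts together with 16010 other genes. The set was chosen by gene name around Adam23, which had itself been selected on its CPM and fold change between these same libraries, so the fold changes of the 7 genes are given as descriptions with no p-value. Counts of the 7 genes past a threshold are printed only beside the share of all genes, and nothing is read from them.

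RNA was sequenced from the aortas of 3 mice that lack miRNA-26b on both alleles (miRNA-26b-/-, here knockout) and of 3 mice with both alleles intact (miRNA-26b+/+, here wild type, called naive in the labels), with 1 library per mouse. All mice were 8 weeks old and on a chow diet, and the strain is given as C57BL/6NCrl. The knockout line derives from targeted R1/E embryonic stem cells, which come from another mouse strain and of which more than 1 clone was used, in which the miRNA-26b sequence within intron 4 of its host gene Ctdsp1 was flanked by loxP sites. The sequence was removed by tamoxifen-activated CreERT2, and the recombinase was then bred out of the line. The paper describes the first lines as a mix of the stem cell strain and C57BL/6, and the mice used as of C57BL/6 background. How much sequence of the stem cell strain remained around the targeted locus on chromosome 1 was not tested. Aortic endothelial cells are the source according to the labels, whereas the methods describe the whole vessel of the arch and the thoracic part.

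ADAM proteins are membrane proteins with a metalloprotease-like and a disintegrin-like domain, and in ADAM11, ADAM22 and ADAM23 the protease domain lacks the zinc-binding residues that catalysis needs. In their place these receptors bind the LGI proteins, secreted proteins with leucine-rich and EPTP repeats. The complexes are best known from neurons, where LGI1 bridges ADAM22 and ADAM23 across the synapse and holds AMPA receptors and Kv1 potassium channels in place, and from peripheral nerve, where LGI4 from Schwann cells binds ADAM22 on axons and is needed for myelination. The wall of the aorta holds nerve fibres and Schwann cells in its adventitia beside smooth muscle, endothelium and fibroblasts.

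The sequences that connect these genes to the deleted miRNA are the mature miRNAs and the matching stretches in the 3′ untranslated regions (UTRs), and they are shown here because a miRNA binds a transcript mainly through its seed, bases 2 to 8 from the 5′ end. In the RefSeq annotation of GRCm38.p6 the arms of miRNA-26b lie on the forward strand of chromosome 1, the 5p arm at chr1:74394324-74394344 and the 3p arm at chr1:74394360-74394381. Capitals mark the seed in each sequence, read 5′ to 3′, and the related miR-26a, which the knockout keeps, is set beside them:
mmu-miR-26b-5p: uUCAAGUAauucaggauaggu
mmu-miR-26a-5p: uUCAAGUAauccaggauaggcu
mmu-miR-26b-3p: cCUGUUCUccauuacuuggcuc
mmu-miR-26a-2-3p: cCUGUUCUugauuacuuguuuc

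The 5p arms of miR-26b and miR-26a share 1 seed, and so do miR-26b-3p and miR-26a-2-3p. A transcript with a site for a seed of miRNA-26b therefore also matches a miR-26a seed. The seed sites searched for the 5p arm were the 8mer TACTTGAA, the 7mer-m8 TACTTGA and the 7mer-A1 ACTTGAA, on the transcript strand only and with each match counted once under its longest form, in the longest annotated 3′ UTR of each gene (GENCODE M21, GRCm38).

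Adam23 was the 1 gene of the 7 with a 5p seed site in its longest 3′ UTR, which is 3620 bases long. The paper had already singled out Adam23 among predicted targets of miRNA-26b, for its target score. A site in Adam23 is therefore no separate evidence. It held an 8mer at chr1:63595874-63595881, which starts 3218 bases after the stop codon, and a 7mer-m8 at chr1:63593522-63593528, which starts 866 bases after it. Adam22 had no site in its longest 3′ UTR of 6334 bases, but a shorter annotated 3′ UTR of 1189 bases, which ends the transcript Adam22-205, held a 7mer-m8 on the reverse strand at chr5:8144887-8144893. The sites are printed on the transcript strand with the match in capitals:
Adam23 8mer: atgtctgaagaactttacaaTACTTGAAtt
Adam23 7mer-m8: tccgtgcgaagattctgtctaTACTTGAgt
Adam22 7mer-m8: gagacagatagtactaccacaTACTTGAgg

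Of 21022 genes with an annotated 3′ UTR, 4.19% held the 8mer, 6.06% the 7mer-m8, 11% the 7mer-A1 and 18.3% at least 1 of these. These shares, and that for the 3p arm below, were not matched for the length of the 3′ UTR. Adam11 and the 4 LGI genes held none in 3′ UTRs of 1290 to 5759 bases. The 3p arm was searched in the same way, a choice made after the values were seen, with the 8mer AGAACAGA, the 7mer-m8 AGAACAG and the 7mer-A1 GAACAGA. Lgi4 held an 8mer at chr7:31069829-31069836 and a 7mer-m8 at chr7:31070632-31070638 in its 3′ UTR of 1744 bases, Lgi1 held 2 7mer-m8 sites near the end of its 3′ UTR of 5759 bases, and the other 5 genes held none. At least 1 such site for the 3p arm was found in 20.1% of the 21022 genes. The sites of Lgi4 are printed in the same form:
Lgi4 8mer: tccagaatgtgacgggggcaAGAACAGAat
Lgi4 7mer-m8: aggcagtgtcaggaggggaggAGAACAGcc

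Library depth ranged from 25706728 to 33345037 counts assigned to genes. Levels are given as CPM, a gene's counts relative to the scaled total of its library. The scaling was TMM, a correction for composition whose factors ranged from 0.982 to 1.02. Over the 16017 genes tested with edgeR's quasi-likelihood test, 1 gene, Gm15564, passed a Benjamini-Hochberg adjusted p of 0.05 (0.00624% of the genes), and 1035 genes (6.46%) had an unadjusted p under 0.05. The CPM of the 2 groups did not overlap in 1846 genes (11.5%). Mir26b itself could not check the genotypes, since its counts were 0 in 5 libraries and 20 in wild-type replicate 2. The host gene Ctdsp1 had 188.6 ± 11.2 CPM in knockout and 164.6 ± 15.6 CPM in wild-type aortas (SD, n = 3 each), with a log2 fold change of 0.20 (standard error 0.145) and an adjusted p of 0.866 by edgeR. Its groups did not overlap, with 181.8 to 201.5 CPM in knockout and 148.5 to 179.5 CPM in wild-type libraries. Knockout was higher without overlap in 5.65% of all genes.

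Of the 7 genes, 0 passed the adjusted threshold, beside the 0.00624% of all genes, and 3 had an unadjusted p under 0.05, beside 6.46% of all genes. In the knockout mice 2 of these genes were higher and 1 was lower. The background shares in those directions were 3.4% and 3.07%. DESeq2 and limma voom also passed 0 of the 7 after adjustment. Adam23, Lgi4 and Adam11 were also the 3 genes whose groups did not overlap in CPM, Adam23 and Lgi4 being higher (5.65% of all genes) and Adam11 lower (5.88%) in knockout mice. The median log2 fold change of the 7 genes was 0.38, beside 0.01 over all genes tested.

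**Figure D1:**
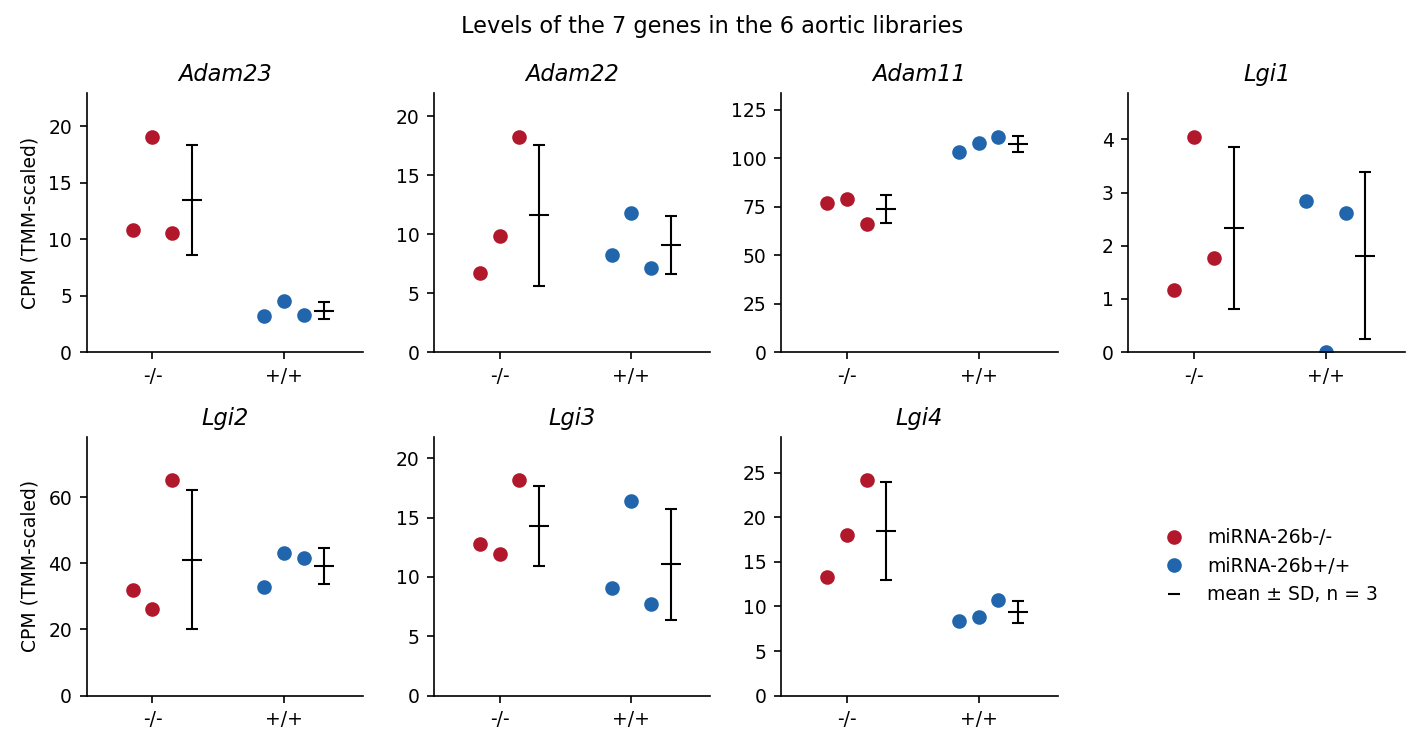
Levels of the 7 genes in TMM-scaled CPM (vertical axes, each starting at 0) in the 3 knockout and 3 wild-type libraries, 1 point per mouse in replicate order from left to right, with the mean and SD (n = 3) beside each group. The groups stand apart for Adam23, Adam11 and Lgi4 and overlap for the other 4 genes.

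Adam23 (ENSMUSG00000025964) spans 63445891 to 63596276 on the forward strand of chromosome 1 in GRCm38, 10.8 Mb from the miRNA-26b hairpin, and its protein binds LGI1 and the integrin αvβ3. The knockout libraries had 10.8, 19.1 and 10.5 CPM of Adam23 (277, 640 and 297 counts). The wild-type libraries had 3.23, 4.55 and 3.28 CPM (99, 125 and 99 counts). The lowest knockout value was more than double the highest wild-type value, and replicate 2 was the highest library in both groups. The means were 13.5 ± 4.85 and 3.69 ± 0.752 CPM (SD, n = 3 each), a 3.66-fold difference, and the fitted log2 fold change was 1.91 (standard error 0.474). Leaving out knockout replicate 2 gave the smallest log2 fold change, 1.54, and leaving out wild-type replicate 2 the largest, 2.09.

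Adam22 (ENSMUSG00000040537), the receptor of LGI1 at synapses and of LGI4 in peripheral nerve, spans 8072352 to 8368160 on chromosome 5 (reverse strand). It had 6.68, 9.87 and 18.3 CPM in the knockout libraries and 8.26, 11.8 and 7.11 CPM in the wild-type libraries. The highest and the lowest value of the 6 were both from knockout mice, so the groups overlapped over the whole wild-type range. The means were 11.6 ± 5.98 and 9.06 ± 2.45 CPM, with a log2 fold change of 0.37 (standard error 0.436) that turned to -0.09 without knockout replicate 3.

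Adam11 (ENSMUSG00000020926), a receptor known from the terminals of cerebellar basket cells, where it holds Kv1 channels, spans 102761439 to 102780262 on chromosome 11 (forward strand). It was the 1 gene of the 7 with a lower mean in knockout mice. The knockout libraries had 77.0, 78.9 and 65.8 CPM, and the wild-type libraries had 103.1, 107.6 and 111.1 CPM. All 3 knockout libraries lay below all 3 wild-type libraries. The means were 73.9 ± 7.05 and 107.3 ± 4.03 CPM, 1.45-fold higher in wild-type mice, with a log2 fold change of -0.54 (standard error 0.163). Leaving out 1 library moved this value between -0.59 and -0.46. Adam11 also varied least within the groups, with a coefficient of variation of 9.54% in knockout and 3.76% in wild-type mice, where the median gene had 27.6% and 23.2%. It also had the most counts of the 7 genes, 1856 to 3358 per library, and the median gene was not matched for level.

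Among the ligands, Lgi4 (ENSMUSG00000036560), which Schwann cells secrete, spans 31059342 to 31070935 on chromosome 7 (forward strand). Its levels were 13.2, 18.0 and 24.1 CPM in the knockout libraries and 8.39, 8.85 and 10.7 CPM in the wild-type libraries. The groups did not overlap, but the gap between knockout replicate 1 and the highest wild-type library was smaller than the spread among the knockout libraries. The means were 18.5 ± 5.47 and 9.32 ± 1.23 CPM, a 1.98-fold difference, with a log2 fold change of 0.99 (standard error 0.351). Without knockout replicate 3 the log2 fold change was 0.76, and without replicate 1 it was 1.16.

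The reads of Lgi4 cannot be fully told from those of Fxyd3, a gene on the opposite strand, because the exons of the genes share 2059 bases (44.9% of the exon length of Lgi4), the counting ignored strand, and a read over both was counted for both. Fxyd3 had 205, 378 and 334 counts in the knockout and 162, 107 and 225 counts in the wild-type libraries. With every Fxyd3 count, shared or not, taken from those of Lgi4, 5.24, 6.71 and 12.3 CPM were left in knockout and 3.10, 4.96 and 3.28 CPM in wild-type mice. The groups still did not overlap, and the log2 ratio of these means was 1.10.

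Lgi1 (ENSMUSG00000067242), the neuronal ligand whose loss causes epilepsy, lies on chromosome 19 (forward strand, 38264536 to 38312214) and had the lowest level of the 7 genes. Its counts were 30, 136 and 50 in the knockout and 87, 0 and 79 in the wild-type libraries, or 1.17, 4.05 and 1.77 against 2.84, 0 and 2.61 CPM. The count of 0 in wild-type replicate 2 allows a level of up to 0.109 CPM (3 counts, counting error only). The groups overlapped, and the log2 fold change of 0.39 had a standard error of 0.890. It was -0.34 without knockout replicate 2 and -0.14 without wild-type replicate 2, so the sign rested on single libraries. An antisense gene, Gm42723, shares 4.69% of the exon length of Lgi1 and had 40 counts in knockout replicate 2 and 0 in the other libraries.

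Lgi2 (ENSMUSG00000039252), a ligand linked to juvenile epilepsy in dogs, lies on chromosome 5 (reverse strand, 52533517 to 52566462). It had 32.0, 26.3 and 65.1 CPM in the knockout libraries and 33.0, 43.0 and 41.6 CPM in the wild-type libraries. Replicate 3 stood well above the other knockout libraries, which both lay below all wild-type libraries. The means were 41.1 ± 21.0 and 39.2 ± 5.44 CPM, and the log2 fold change of 0.06 (standard error 0.299) was -0.44 without that library.

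Lgi3 (ENSMUSG00000033595), a ligand associated with Kv1 channels along axons, lies on chromosome 14 (forward strand, 70530685 to 70538324). It had 12.7, 11.9 and 18.2 CPM in knockout and 9.07, 16.4 and 7.74 CPM in wild-type aortas. The wild-type replicate 2 lay above 2 of the knockout libraries, and the groups overlapped. The means were 14.3 ± 3.39 and 11.1 ± 4.66 CPM, with a log2 fold change of 0.38 (standard error 0.381) that stayed between 0.17 and 0.76 when any 1 library was left out.

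**Figure D2:**
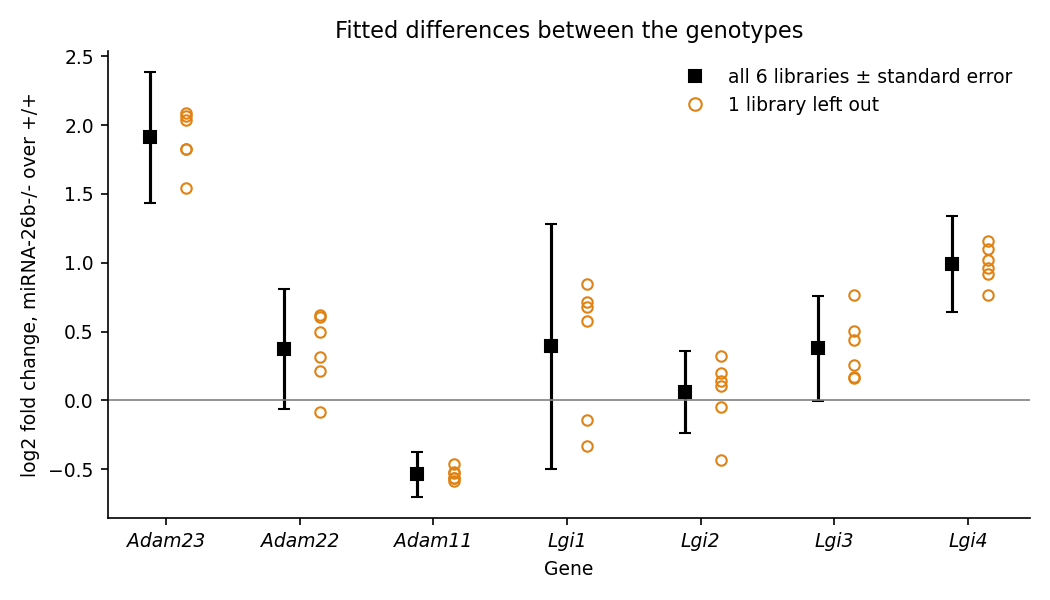
Fitted log2 fold change of each gene, knockout over wild-type (vertical axis), with all 6 libraries (squares, bars give 1 standard error) and after removal of 1 library at a time (open circles). Every circle stays on its side of 0 for Adam23 (1.54 to 2.09), Adam11 (-0.59 to -0.46), Lgi3 (0.17 to 0.76) and Lgi4 (0.76 to 1.16), and circles fall on both sides for Adam22, Lgi1 and Lgi2.

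Across the 7 genes, the highest library was knockout replicate 3 for 4 genes (Adam22, Lgi2, Lgi3 and Lgi4) and replicate 2 for 2 genes (Adam23 and Lgi1), while Adam11 was highest in wild-type replicate 3. In Adam22 and Lgi2 knockout replicate 3 stood far above the other knockout libraries, and the coefficients of variation in that group were 51.5% and 51.0%. The same library had the highest summed level of 6 fibroblast genes, 8045 CPM against 4407 to 5494 CPM in the other libraries, and the lowest sum of 6 smooth muscle genes, 31127 CPM against 34099 to 42023 CPM. Its sum of 10 endothelial genes was 1884 CPM, against 549 and 555 CPM in the other knockout libraries and 1310 to 1789 CPM in the wild-type libraries. The part of these differences in the levels of Adam22, Lgi2, Lgi3 and Lgi4 was not tested.

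Genes can be compared with each other only per length, and for this the CPM were divided by the kilobases of exon in the count table. On this scale Adam11 was at 16.0 ± 3.35 CPM per kb (SD over the 6 libraries), above Lgi2 with 6.15 ± 2.11 in all 6 libraries and with no overlap of the ranges. Lgi2 was above Lgi3 (3.25 ± 1.04 CPM per kb) in each of the 6 libraries, though the ranges of these genes overlapped. Lgi3 and Lgi4 (3.03 ± 1.34 CPM per kb) did not differ beyond their spread, each being higher in 3 of 6 libraries. The level of Lgi4 includes all reads over the exons it shares with Fxyd3. Without those reads it would be lower, and its place in the order was not computed.

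The remaining 3 genes formed the lower end of the order. With the reads shared with Fxyd3 included, Lgi4 was above Adam22 (0.720 ± 0.301 CPM per kb) in 6 of 6 libraries with no overlap. Whether this holds without those reads was not tested. Adam22, Adam23 (0.479 ± 0.346) and Lgi1 (0.183 CPM per kb, from 0 to 0.357) overlapped, each neighbour being the higher of its pair in 4 of 6 libraries. The order of these genes differed with the genotype: Adam22 was above Adam23 in 3 of 3 wild-type and 1 of 3 knockout libraries, and Adam23 was above Lgi1 in 3 of 3 knockout and 1 of 3 wild-type libraries. With the longest coding transcript of each gene as its length, the mean over all 6 libraries was higher for Adam23 (1.34 CPM per kb) than for Adam22 (1.12), but Adam22 was still above Adam23 in 3 of 3 wild-type and 1 of 3 knockout libraries. On that scale the means of Adam23 and Adam22 were 0.574 and 0.980 CPM per kb in wild-type and 2.10 and 1.26 in knockout mice, and Adam23 was above Lgi1 in every library. These orders restate the levels above, on which Adam23 had been selected, and are no separate evidence.

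**Figure D3:**
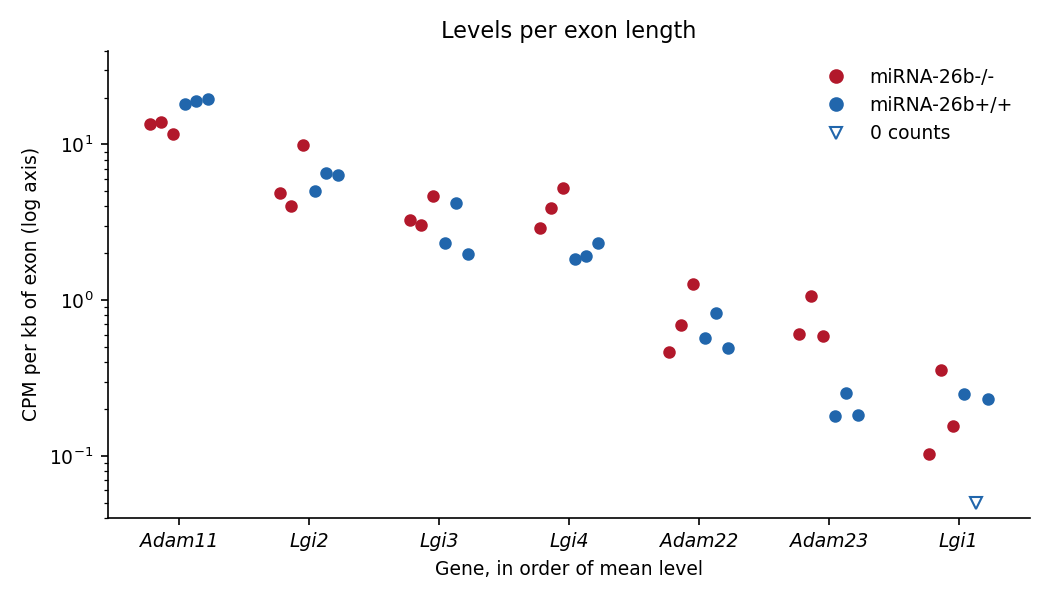
TMM-scaled CPM per kb of exon (log axis) for each gene in the order of its mean, with 1 point per library and an open triangle for the wild-type library with 0 counts of Lgi1. Adam11 lies above every other gene in every library, and Adam22, Adam23 and Lgi1 lie lowest.

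As shares of the family, Adam11 made up 94.6% to 96.7% of the summed per-length level of the 3 receptors in wild-type and 86.2% to 92.7% in knockout mice. The share of Adam23 was 0.902% to 1.27% in wild-type and 4.13% to 6.80% in knockout mice. The receptor total thus remained mostly Adam11 in both genotypes. Among the ligands, the share of Lgi2 was 51.8% to 58.3% in wild-type and 35.4% to 49.7% in knockout mice, and that of Lgi4 was 15.2% to 21.4% and 25.9% to 34.5%. The ligand shares include the reads that Lgi4 may share with Fxyd3. These shares restate the levels above and are no separate evidence.

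Markers of Schwann cells were, like Adam23 and Lgi4, higher in knockout than in wild-type mice. The summed CPM of 12 Schwann cell genes was 303, 293 and 170 in the knockout libraries and 41.1, 82.6 and 113 in the wild-type libraries, with no overlap. Of the 11 list genes tested, 11 had a log2 fold change above 0 (median 1.54), 8 had an unadjusted p under 0.05 in that direction and 0 passed after adjustment by edgeR. Without knockout replicate 3 the median was 1.95 and 3 passed after adjustment, and without wild-type replicate 1 it was 1.26, with 4 at an unadjusted p under 0.05. Mag, a gene of myelin, had 45 counts in knockout replicate 2 and 0 in the other libraries.

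Within the genotypes the marker sum shared the library order of Lgi4 and Adam11 in wild-type mice only, and that of Adam23 in neither group. Among the knockout libraries the marker sum was highest in replicate 1, where Lgi4 was lowest, and lowest in replicate 3, where Lgi4 was highest. Among the wild-type libraries Lgi4, Adam11 and the marker sum had the same order. Among the knockout libraries Adam11 was lowest in replicate 3, as the marker sum was, and highest in replicate 2. Adam23 was highest in replicate 2 of both groups, which the marker sum was in neither. The part of Schwann cells in the levels of Adam23, Lgi4 and Adam11 was not tested, and in bulk tissue a different number of cells of a type and a different RNA amount per cell cannot be told apart.

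**Figure D4:**
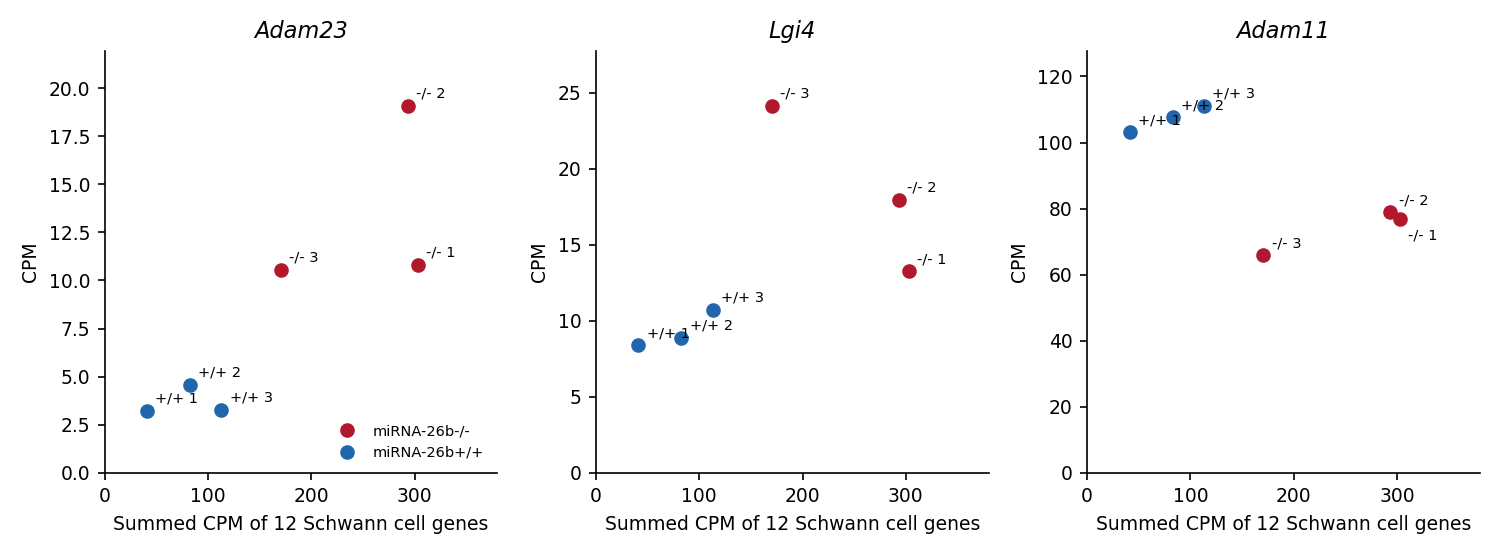
TMM-scaled CPM of Adam23, Lgi4 and Adam11 (vertical axes) against the summed CPM of 12 Schwann cell genes (horizontal axes), 1 point per library, labelled by genotype and replicate. The marker sums of the groups do not overlap (170 to 303 against 41.1 to 113 CPM), and within the knockout group Lgi4 is highest where the sum is lowest.

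Marker sums of other cell types also varied between libraries. The summed CPM of 14 sympathetic neuron genes was 573 in knockout replicate 2, the library with the highest Adam23 and Lgi1, against 107 and 85.3 CPM in the other knockout libraries, which both lay below the wild-type range of 115 to 174 CPM. The median log2 fold change of the 11 of these genes tested was 2.72, with 5 higher at an unadjusted p under 0.05 and 0 adjusted. Without knockout replicate 2 the direction turned, with a median of -0.42 over 9 genes, of which 0 were higher and 1 lower at an unadjusted p under 0.05. Skeletal muscle genes summed to 8.40 to 85.9 CPM in knockout and 2.18 to 11.2 CPM in wild-type libraries, with 5 of 6 higher at an unadjusted p under 0.05 and 0 adjusted, and 2 of 4 tested without knockout replicate 2. Sums of cardiac muscle, adipocyte and macrophage genes overlapped between the groups, and each list had 0 genes at an unadjusted p under 0.05. The labelled endothelial source was checked against 10 defining genes, of which 1 was lower at an unadjusted p under 0.05 and 0 adjusted (median log2 fold change -0.56), while without knockout replicate 3 the median was -1.35 with 7 lower, 4 of them after adjustment. They were at 549 to 1884 CPM in sum, where smooth muscle genes summed to 31127 to 42023 CPM. The smooth muscle and fibroblast lists had 0 genes at an unadjusted p under 0.05. With knockout replicate 3 left out, 4 macrophage and 3 fibroblast genes were lower at an unadjusted p under 0.05, and with knockout replicate 2 left out 3 cardiac muscle genes were. The part of these cell types in the levels of the 7 genes was not tested. Without knockout replicate 2 the log2 fold change of Adam23 was 1.54 in place of 1.91.

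The partners of the complex were taken as lists of genes by known role, 39 genes in all, of which 28 were tested. After adjustment 0 of the 28 passed by edgeR, DESeq2 or limma voom (0.00624% of all genes by edgeR), and 3 (10.7%) had an unadjusted p under 0.05, beside 6.46% of all genes tested. The 16 synaptic partners are the PSD-95 family scaffolds that anchor ADAM22, the AMPA receptor and its auxiliary subunit, Kv1 channel subunits and adhesion proteins of the axon. Of the 12 tested, 2 were higher at an unadjusted p under 0.05 and 0 lower, and the median log2 fold change was 0.45.

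Kcna2, which encodes the pore subunit Kv1.2, had 602, 1039 and 275 counts in knockout and 272, 262 and 190 counts in wild-type libraries. The means were 21.4 ± 10.8 and 8.24 ± 1.72 CPM, with a log2 fold change of 1.40 (standard error 0.425) and an adjusted p of 0.734 by edgeR. Without knockout replicate 3, its lowest knockout library, the log2 fold change was 1.75 and the adjusted p 0.0297. Without knockout replicate 2, its highest library, they were 0.999 and 0.857, and in the other omissions the adjusted p was 0.795 or more. The Nogo receptor gene Rtn4r, whose protein also binds LGI1, had 65, 40 and 118 counts against 32, 0 and 0, with an adjusted p of 0.745 by edgeR. With DESeq2, limma voom and the earlier quasi-likelihood method of edgeR it had no unadjusted p under 0.05. The same held without knockout replicate 1 or 3 and without wild-type replicate 2 or 3. The AMPA receptor gene Gria2 and its auxiliary subunit gene Cacng2 were too low to test, with 34 and 97 counts in knockout replicate 2 and at most 1 count in any other library. That library also held the highest neuronal marker sum. Another AMPA receptor gene, Gria1, was tested and had 7.40 ± 4.55 CPM in knockout and 10.6 ± 4.04 CPM in wild-type libraries. Its groups overlapped, with a log2 fold change of -0.46 (standard error 0.490). Dlg4, which encodes PSD-95, had 43.7, 38.0 and 35.0 CPM in knockout and 37.6, 36.6 and 50.7 CPM in wild-type libraries, and these ranges overlapped.

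The other lists held few differences. The chains of the integrin αvβ3, which ADAM23 binds, had log2 fold changes of 0.09 (Itgav) and -0.05 (Itgb3), and neither had an unadjusted p under 0.05. Of the 14-3-3 proteins, which bind the cytoplasmic tail of ADAM22, 6 of 7 genes were tested and 0 had an unadjusted p under 0.05 (median log2 fold change 0.06). Of the 9 catalytically active ADAM genes, 7 were tested (median 0.12) and 1 was lower at an unadjusted p under 0.05. This was Adam9, with 160.0 ± 16.0 against 207.4 ± 25.5 CPM, with a fitted log2 ratio of -0.37 ± 0.153 (standard error, adjusted p of 0.736 by edgeR). Its unadjusted p by edgeR was 0.096 without knockout replicate 1, 0.12 without wild-type replicate 2 and 0.069 without wild-type replicate 3. Of 5 further ADAM genes without a catalytic site, 3 (Adam7, Adam18 and Adam29) had 0 counts in all libraries, and 1 was tested, with 0 at an unadjusted p under 0.05.

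**Figure D5:**
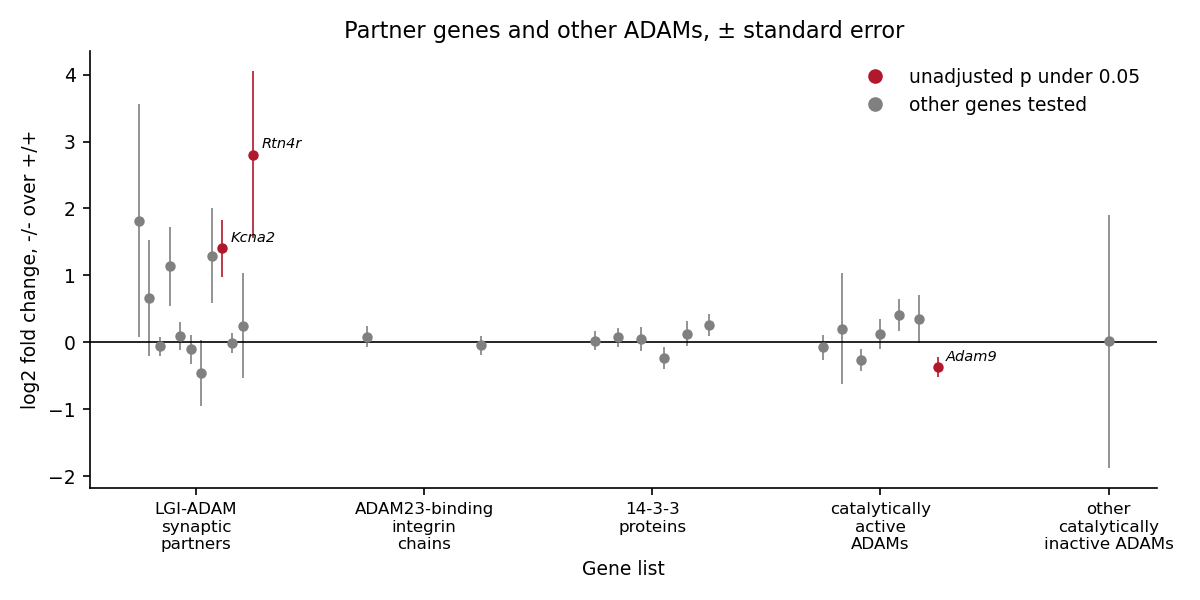
Log2 fold change, knockout over wild-type (vertical axis), with its standard error for the 28 tested genes of the 5 lists (horizontal axis). The 3 genes at an unadjusted p under 0.05 are named, and 0 passed after adjustment.

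The genes whose log2 CPM followed that of each family gene most closely over the 6 libraries are given by Pearson's r, as a description in which the libraries and their depth are shared. For Adam23 they were Hcn4 (0.988), Nudt21 (0.984), Cirbp (0.981), Clcn2 (0.980) and Hexim2 (0.979). All 5 had a higher mean CPM in knockout than in wild-type mice, as Adam23 did, so their r includes the genotype difference. For Adam22 they were F11r, Chd9 and Slc38a11, led by 0.992, and for Adam11 they were Rp9, Timm29 and Fam124a, led by 0.993. Rp9, Timm29 and Fam124a had a lower mean CPM in knockout mice, as Adam11 did, so their r includes that difference too. For Lgi4 the gene of highest r was Eln (0.993), which encodes elastin, and for Lgi1, Lgi2 and Lgi3 these were Alyref2 (0.997), Srp54c (0.991) and Chmp1a (0.991). Eln was higher on average in knockout mice, as Lgi4 was. Lgi1 had 0 counts in wild-type replicate 2, and Alyref2 fell to 0.146 CPM in its lowest library. The r of Lgi1 therefore leans on values near 0. The highest r of each of the 7 genes was between 0.988 and 0.997, and the 7 genes were not among each other's closest.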

How the data were processed

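RNA of 6 mouse aortas was sequenced (TruSeq RNA library kit, Illumina). Alignment by the authors was with STAR to mm10. They deposited raw read counts per gene from featureCounts 1.6.4, in which strand was ignored and a read over overlapping genes was added to every one of them. The file header names GENCODE M21. A table of the authors' log values and comparison was not used. Groups were taken from the labels, which give no batch. Genes were kept at a total of 2 counts or more and above 1 CPM in 2 or more libraries, normalized by TMM and fitted with the quasi-likelihood method of edgeR 4.0.16 (R 4.3.3, prior count 0.125), with Benjamini-Hochberg adjustment over all 16017 genes tested. The fit was checked on simulated counts. The depth, 25706728 to 33345037 counts, limits low genes, and the floor of 3 counts covers counting error only. Alternatives were other scalings (library size, RLE, upper quartile), DESeq2 1.42.0, limma voom 3.58.1, the earlier quasi-likelihood method, other filters, a prior count of 2 and leaving out each library. Lengths by coding transcript, levels compared within each genotype, marker lists without single libraries, the subtraction of Fxyd3 and the sites of the 3p arm were added after seeing the data. The members, partner lists and marker lists were chosen with earlier results of these data known. Named partner genes were those with an unadjusted p under 0.05, then others of the lists by level or role, Gria2, Cacng2 and the marker Mag being named after their values were seen. Protein sequences were not analysed here.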

Additional observations from a re-analysis of the deposited data

How the results depend on the processing

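The number of genes with an adjusted p under 0.05, 1 with all libraries, was 57 with DESeq2, 3 with limma voom, 0 with the earlier quasi-likelihood method of edgeR, and 0 to 82 when 1 library was left out, the 82 without knockout replicate 3. At an unadjusted p under 0.05 it went from 1035 to between 686 and 1692. Of the 28 partner genes, 0 to 1 passed the adjusted and 2 to 6 the unadjusted threshold when 1 library was left out. Levels per kb of the longest coding transcript, as means over both genotypes, were 1.34 CPM for Adam23 and 1.12 CPM for Adam22, although Adam22 was the higher in 4 of the 6 libraries. With all annotated 3′ UTRs, 2 of the 7 genes held a 5p seed site in place of 1. Of the 7 genes, 0 passed after adjustment under any alternative, and Adam23, Adam11, Lgi3 and Lgi4 kept their direction under all of them, while Adam22, Lgi1 and Lgi2 did not. No paired analysis was possible because the replicate numbers only follow the order of the accessions.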
